A study of Mus musculus with 71 samples.

Results

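Peroxiredoxins are thiol enzymes that reduce hydrogen peroxide and organic peroxides. In most of them the oxidized thiol is reduced by thioredoxin, which thioredoxin reductases in turn keep reduced with NADPH. Sulfiredoxin repairs some of the peroxiredoxins when peroxide has over-oxidized them, and Txnip encodes a protein that binds thioredoxin and restrains it. In red cells, which carry oxygen and iron, Prdx2 is among the most abundant proteins. The genes described here are 10 members of this system, chosen by gene symbol: the peroxiredoxins Prdx1, Prdx2, Prdx3, Prdx5 and Prdx6, the cytosolic thioredoxin Txn1, the cytosolic and mitochondrial thioredoxin reductases Txnrd1 and Txnrd2, Txnip, and the sulfiredoxin gene Srxn1. All 10 were among the 10508 genes of the deposited expression table, and no member was lost to its filter on low values.

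Whole blood was taken at the end of a mouse model of systemic sclerosis (SSc) and its RNA was sequenced in 71 mice. The mice of the control, HOCl, E07 and D11 groups were female Balb/c AnNRj, aged 6 weeks at the start. Hypochlorous acid (HOCl) was injected into the skin on 5 days a week over 6 weeks, whereas the 11 control mice received PBS. The 12 HOCl mice had no antibody. A further 12 mice each received HOCl with E07 or D11, monoclonal antibodies (mAbs) against galectin-3 given at 20 mg/kg every 5 days, and 12 mice each are labelled HOCl with D06 or BPR21, for which the strain, age, schedule of HOCl, nature of the agent and dose are not given in the sources used here. The genotype label reads HOCL for all mice, controls included, so that groups were taken from the titles. Groups were housed in separate cages, so a cage and a group cannot be told apart. Expression is given as vst values, a log2-like scale after division by a size factor for each library, for 70 mice. HOCl mouse 8 has counts without vst values, so that 11 HOCl mice enter the vst values and 12 the counts.

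The depth was 11932855 to 15948972 counted reads in a mouse. A list of 29 erythroid genes took 3.29 to 10.3% of these counts in control mice (median 7.29%), 7.99 to 17.8% in HOCl mice (11.9%), 4.65 to 9.59% in E07 mice (6.68%), 5.06 to 12.5% in D11 mice (8.45%), 7.42 to 18.3% in D06 mice (9.30%) and 6.23 to 12.1% in BPR21 mice (8.89%). Icam4 was the sole gene of the list at 0 in any mouse. Since the blood was not separated into cells, more cells of a type and more RNA per cell cannot be told apart. Scaling to the total count in place of size factors shifted the middle of the log2 fold changes over all genes from -0.02 to -0.47 between HOCl and control mice and from 0.02 to 0.49 between E07 and HOCl mice. A direction given below for a gene other than Prdx2 and Txnrd2, member or not, is relative to the size factors for that reason. Single mice stood apart. HOCl mouse 7 had the highest vst value of all mice for Prdx2, Txnrd2, Prdx3 and Prdx5, control mouse 12 the highest of the controls for Prdx1, Prdx2 and Txnrd2, and D11 mouse 10 the lowest value of all mice for Txnrd1 and the highest for Prdx6.

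The sequences upstream of 4 genes are shown. Prdx2 and Txnrd2 were taken because their values rose and fell together. Prdx1 and Srxn1 were taken because they carry a core of the antioxidant response element, the site bound by the stress factor NRF2. Each is the 250 bases before the RefSeq start on GRCm38.p6, written 5′ to 3′ along the gene, and capitals mark the matches to a motif on either strand. Such a table entry was found for 9 of the 10 members, and Prdx6 is named only.

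Prdx2 promoter, chr8:84969372-84969621 (+ strand): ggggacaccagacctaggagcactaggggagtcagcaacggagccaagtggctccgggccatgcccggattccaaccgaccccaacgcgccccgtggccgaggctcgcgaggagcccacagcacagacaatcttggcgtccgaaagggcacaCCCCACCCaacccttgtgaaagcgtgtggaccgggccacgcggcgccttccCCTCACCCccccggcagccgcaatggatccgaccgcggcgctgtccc

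Txnrd2 promoter, chr16:18426167-18426416 (+ strand): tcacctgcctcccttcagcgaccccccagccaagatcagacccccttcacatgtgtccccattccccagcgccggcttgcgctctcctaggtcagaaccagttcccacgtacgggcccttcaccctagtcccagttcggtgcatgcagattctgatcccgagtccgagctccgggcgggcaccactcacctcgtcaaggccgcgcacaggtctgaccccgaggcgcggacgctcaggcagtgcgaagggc

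Prdx1 promoter, chr4:116685349-116685598 (+ strand): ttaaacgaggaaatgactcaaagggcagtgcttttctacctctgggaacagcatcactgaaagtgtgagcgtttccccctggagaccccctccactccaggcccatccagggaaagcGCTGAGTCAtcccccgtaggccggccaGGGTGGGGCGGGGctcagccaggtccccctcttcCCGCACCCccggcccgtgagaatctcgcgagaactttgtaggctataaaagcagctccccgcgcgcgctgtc

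Srxn1 promoter, chr2:152105274-152105523 (+ strand): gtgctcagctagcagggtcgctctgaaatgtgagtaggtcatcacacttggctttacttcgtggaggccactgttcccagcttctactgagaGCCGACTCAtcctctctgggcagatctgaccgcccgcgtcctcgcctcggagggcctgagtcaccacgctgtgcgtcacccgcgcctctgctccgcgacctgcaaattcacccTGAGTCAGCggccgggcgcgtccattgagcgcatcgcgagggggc

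The motifs searched were the antioxidant response element core as TGACNNNGC or TGAGNNNGC, a GATA site as AGATAA, a site of the KLF family as CCNCNCCC and the E-box CACGTG, in which N stands for any base. TGACNNNGC was found in Prdx1 from position -133 and in 1 of the 3 starts listed for Txnrd1 from -92, where -1 is the base before the start, and in 10.2% of all 32851 promoter windows of this length. TGAGNNNGC was found in Srxn1 alone of the members, from -158 and from -45, and in 14.4% of all windows. The capitals in Prdx2 are 2 matches to CCNCNCCC, from -98 and -47, and 45.9% of all windows hold this motif. Prdx1, Prdx3, Prdx5, Txn1, Txnip and 1 of the 3 starts of Txnrd1 hold it as well. Overlapping matches to it in Prdx1, from -106 and -101, form 1 run of capitals. Txnrd2 held no match to any of these motifs in this window, and AGATAA and CACGTG were found in no member, against 9.99% and 6.02% of all windows.

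Per length of the canonical transcript, Prdx2 had by far the highest level of the system in blood. Its median over 71 mice was 1070 RPKM, counts scaled to transcript length and to the total of the mouse, compared with 144 for Txnip, 98.5 for Txn1, 86.3 for Prdx5, 57.9 for Prdx6, 57.7 for Prdx1, 48.4 for Txnrd2, 27.3 for Prdx3, 15.2 for Srxn1 and 6.07 for Txnrd1. The ranges of Prdx6 and Prdx1 over mice overlapped. With the length of all exons in place of the canonical transcript, Prdx2 and Txnip stayed highest, at medians of 505 and 129. Those of Prdx5, Prdx1, Txn1, Prdx3, Txnrd2 and Prdx6 were then 54.3, 37.1, 35.4, 24.8, 21.3 and 16.8. The order of these members thus depended on the length used. The highest RPKM of a mouse was 7.54-fold the lowest for Txnrd2, 6.96-fold for Prdx2 and 2.84-fold for Prdx3. The 14.3-fold range of Txnrd1 rested on D11 mouse 10 at 0.732 RPKM, the next lowest mouse being at 1.83 and the highest at 10.5. The pseudogene Prdx2-ps1, to which reads of Prdx2 could be assigned, had 35 to 313 counts per mouse, against at least 10593 for Prdx2. The other annotated copies of Prdx1, Prdx2 and Prdx6 had at most 4 counts in a mouse.

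Prdx2, the abundant peroxiredoxin of red cells, is annotated at 85693354 to 85702350 of chromosome 8 (GRCm39, GENCODE vM39). vst values were 12.74 to 16.00 in control mice with a median of 14.01. In HOCl mice it was 13.84 to 17.25 (median 15.38). In E07 mice it was 13.50 to 14.77 (median 13.78), the narrowest range of the 6 groups. The D11 values ran from 13.91 to 16.18 (median 15.06), the D06 values from 13.63 to 16.99 (median 15.50) and the BPR21 values from 13.39 to 16.73 (median 15.07). The HOCl and control ranges overlapped, with 10 of 11 HOCl mice above the control median, and all 12 E07 mice were below the HOCl median and 7 of them below every HOCl mouse. The E07 values fell into a lower set of 7 mice between 13.50 and 13.79 and a higher set of 5 between 14.60 and 14.77, with no mouse between them.

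Txnrd2, the mitochondrial thioredoxin reductase (chromosome 16, 18245134 to 18297823), rose and fell with Prdx2 from mouse to mouse. Its vst value was 8.81 to 11.44 (median 9.62) in control, 9.59 to 12.97 (10.97) in HOCl, 9.19 to 10.49 (9.82) in E07, 9.50 to 11.68 (10.65) in D11, 10.06 to 12.11 (11.11) in D06 and 8.92 to 12.02 (10.56) in BPR21 mice. Again 10 of 11 HOCl mice were above the control median, all 12 E07 mice were below the HOCl median, and all 12 D06 mice were above the control median. With the group means removed, Txnrd2 and Prdx2 were correlated with r = 0.96 and rho = 0.96 over 70 mice, and r was 0.89 to 0.99 within each group. The adjusted p of both was 1.50e-04 by a permutation test over 45 pairs of members.

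**Figure D1:**
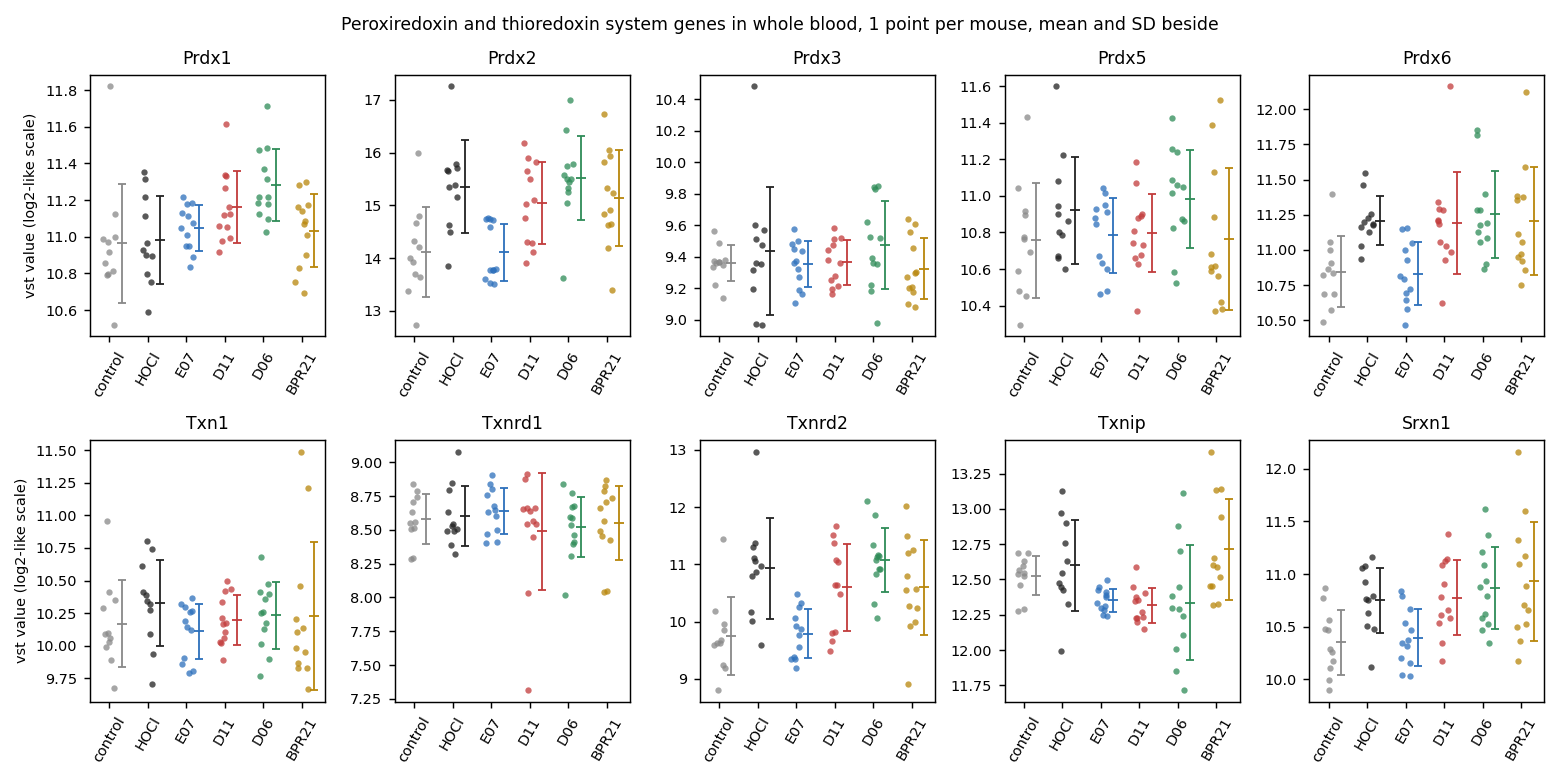
vst values (y, log2-like scale) of the 10 genes in the 6 groups (x), with 1 point per mouse and the mean and SD of each group beside its points. Prdx2 and Txnrd2 lie higher in HOCl and D06 than in control and E07 mice with overlapping ranges, while Txnrd1, Prdx3 and Prdx5 lie at similar heights in all groups apart from single mice.

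To ask which members changed with HOCl and with the mAbs, limma was run on the vst values of each pair of groups, with thresholds of a false discovery rate (FDR) of at most 0.05 over all 10508 genes and a fold change of at least 1.3. Prdx2 and Txnrd2 were higher in HOCl than in control mice. Prdx2 rose by 1.23 on the log2 scale (standard error 0.32, FDR 0.0221), and Txnrd2 by 1.18 (standard error 0.30, FDR 0.0164). These were 2 of 10 members, compared with 4.96% of all genes called and 4.79% called higher. All 10 members had a positive log2 fold change, with a median of 0.16 against -0.02 for all genes tested. Prdx6, the peroxiredoxin that also acts on phospholipids (chromosome 1, 161051417 to 161079098), passed the FDR at 0.0192 but was below the fold change, at a log2 difference of 0.36 (standard error 0.09). Srxn1 (chromosome 2, 151947436 to 151957687) differed by 0.40 (standard error 0.12) with an FDR of 0.0580. Without HOCl mouse 7 all 4 genes passed both thresholds, with 1.04 for Prdx2 (FDR 0.0298), 0.98 for Txnrd2 (FDR 0.0170), 0.39 for Prdx6 (FDR 0.0140) and 0.46 for Srxn1 (FDR 0.0170). Without control mouse 4, Prdx6 and Srxn1 passed likewise, and without HOCl mouse 2 as well. Prdx6 also passed without control mouse 5, and Srxn1 without control mouse 12.

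In E07 mice, Prdx2 and Txnrd2 were lower than in HOCl mice. Prdx2 fell by 1.25 (standard error 0.27, FDR 0.00198) and Txnrd2 by 1.14 (standard error 0.25, FDR 0.00298), again 2 of 10 members, against 7.89% of all genes called and 7.01% called lower. The median log2 fold change of the members was -0.23, compared with 0.02 for all genes. Prdx6 differed by -0.38 (FDR 0.00326), just below the threshold of 1.3-fold, and all 12 E07 mice were below the HOCl median and 8 below every HOCl mouse. It passed both thresholds in 11 of 23 fits that left out 1 mouse. Srxn1 differed by -0.35 (FDR 0.0364), and by -0.42 (FDR 0.00760) without HOCl mouse 7. This comparison and that of HOCl with control share the HOCl mice, so opposite directions in both are not independent of each other. Compared with control mice, E07 mice had 0 members past both thresholds, against 0.00952% of all genes called. At an unadjusted p under 0.05, 1 member and 799 of all 10508 genes differed. edgeR and DESeq2 on the counts called 0 members. The log2 differences from control were -0.01 for Prdx2 (standard error 0.26) and 0.05 for Txnrd2 (standard error 0.21). Without control mouse 12, that of Prdx2 was 0.17 (FDR 0.848).

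**Figure D2:**
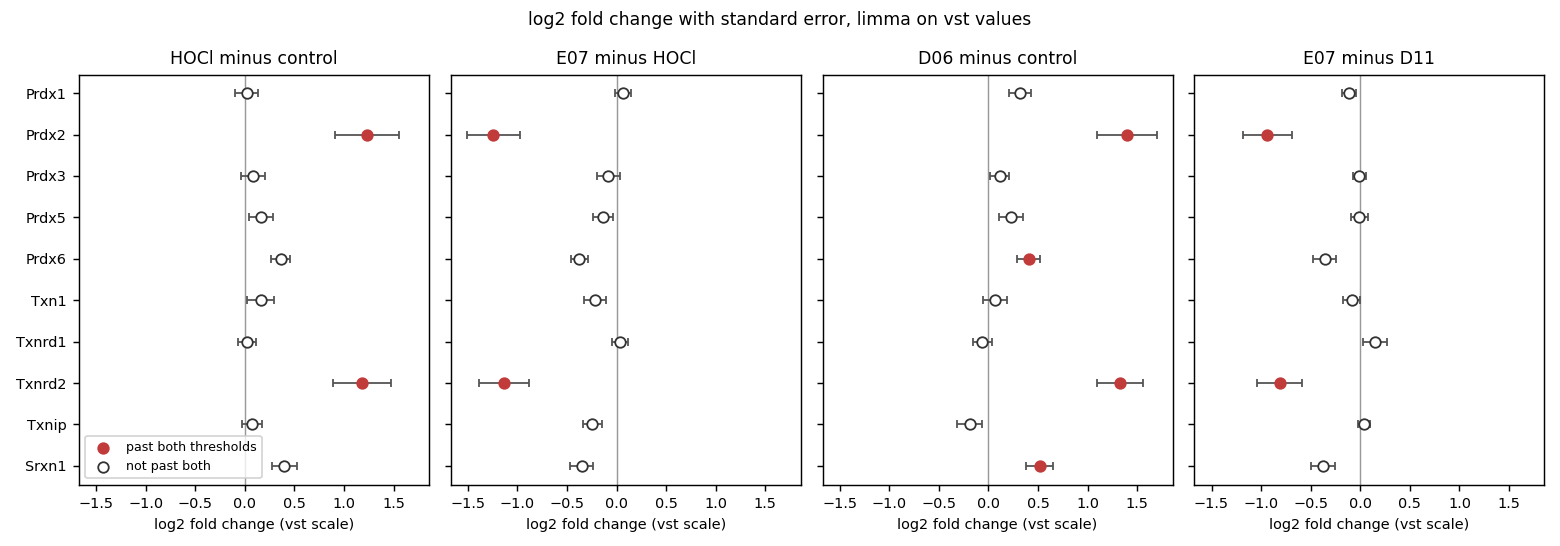
log2 fold change on the vst scale (x) with its standard error for the 10 genes (y) in 4 comparisons, filled red where both thresholds were passed with limma. Prdx2 and Txnrd2 are past both in all 4 panels, with Prdx6 and Srxn1 beside them in D06 against control. With scaling to the total count, Prdx6 and Srxn1 have the opposite sign in D06 against control.

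D11, D06 and BPR21 mice did not differ from HOCl mice in any member past both thresholds, against 0.0571%, 0.133% and 0.638% of all genes called. The numbers of members at an unadjusted p under 0.05 were 1, 1 and 0, against 1483, 1338 and 1474 of all 10508 genes. edgeR and DESeq2 called 0 members in each. For Prdx2 the log2 differences from HOCl were -0.31 in D11 (standard error 0.30), 0.16 in D06 (standard error 0.31) and -0.22 in BPR21 mice (standard error 0.33). Without HOCl mouse 7 they were -0.12, 0.35 and -0.03. Between the mAbs themselves, Prdx2 had a log2 difference of -0.94 in E07 against D11 mice (standard error 0.24, FDR 0.0248), and Txnrd2 one of -0.81 (standard error 0.23, FDR 0.0317), against 4.57% of all genes called and 4.27% called lower. All 12 E07 mice were below the D11 median for both genes. In this comparison, Prdx2 lost its call without E07 mouse 9 (FDR 0.0516), and Txnrd2 in 11 of the 24 fits that left out 1 mouse, with an FDR of up to 0.0609. In a fit of all 6 groups, the FDR was 0.0965 for Prdx2 and 0.102 for Txnrd2.

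Compared with control mice, D06 mice had 4 members higher, against 7.88% of all genes called and 7.27% called higher. Prdx2 was higher by 1.39 (standard error 0.30, FDR 0.00318), Txnrd2 by 1.33 (standard error 0.23, FDR 0.000998), Prdx6 by 0.41 (standard error 0.12, FDR 0.0214) and Srxn1 by 0.52 (standard error 0.14, FDR 0.0144). With scaling to the total count, Prdx2 and Txnrd2 stayed higher, at 0.83 and 0.90, while Prdx6 and Srxn1 had values of -0.14 and -0.01. Prdx6 was below the fold threshold without D06 mouse 10, D06 mouse 11 or control mouse 11 (0.36, 0.35 and 0.37). Without control mouse 12, Prdx1 passed as well, at 0.40 (FDR 0.00170). D11 and BPR21 mice had 0 members past both thresholds against control, where 0.0761% and 0.504% of all genes were called. Unadjusted p-values under 0.05 were found for 5 and 4 members, and for 1697 and 2095 of all 10508 genes. edgeR called 0 members in each, whereas DESeq2 called 0 and 1. The log2 differences were nonetheless 0.92 and 1.02 for Prdx2, 0.86 and 0.86 for Txnrd2, and 0.42 and 0.58 for Srxn1. All 3 genes passed without control mouse 12 in both comparisons, Prdx2 with FDRs of 0.0156 and 0.0226. Without BPR21 mouse 1, the 3 genes passed in BPR21 against control, at 1.18 for Prdx2 (FDR 0.0333). The 5 comparisons with control share the control mice, as those with HOCl share the HOCl mice.

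In a fit of all 6 groups, the order of mean vst values of Prdx2 was D06, HOCl, BPR21, D11, control and E07. No neighbours in this order differed past both thresholds, with an FDR of 0.137 between D11 and control. For Txnrd2 the order was D06, HOCl, D11, BPR21, E07 and control, and the step from BPR21 to E07 of 0.81 (standard error 0.28, FDR 0.0466) was the sole step between neighbours past both thresholds among all 10 members. Prdx6 and Srxn1 shared their 2 lowest groups, control and E07, and the steps above these were 0.35 (FDR 0.143) and 0.35 (FDR 0.147).

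The 29 erythroid genes moved in the same comparisons as Prdx2 and Txnrd2. Of these, 25 were called higher in HOCl than in control mice, 27 lower in E07 than in HOCl mice, 27 higher in D06 than in control mice and 11 lower in E07 than in D11 mice. The shares over all genes were 4.79%, 7.01%, 7.27% and 4.27%, in the same order. This list and the other marker lists were chosen with earlier results of these data known. None of the 29 erythroid genes was called in D11, D06 or BPR21 against HOCl, nor in E07, D11 or BPR21 against control. Slc4a1, the anion exchanger of the red cell membrane, had log2 fold changes of 1.80 in HOCl against control and -2.03 in E07 against HOCl mice, and Alas2, which starts heme synthesis in red cell precursors, had 1.18 and -1.25. The share of counts on the erythroid list was higher by 4.62 percentage points in HOCl than in control mice (adjusted p = 5.00e-04 by a permutation test, two-sided, over 10 comparisons), and E07 against HOCl mice gave -5.08 (adjusted p = 1.00e-04). Without Slc4a1 and Alas2 these differences were 1.62 and -1.76 (adjusted p = 3.00e-04 and 1.00e-04 by the same test). In E07 against D11 mice, where 11 erythroid genes were called, the share of the full list differed by -1.93 (adjusted p = 0.0808). The difference from HOCl was -1.80 in D06 (adjusted p = 0.156), -3.15 in D11 (adjusted p = 0.0181) and -2.86 in BPR21 mice (adjusted p = 0.0131), and that of D06 from control mice was 2.83 (adjusted p = 0.0187). The differences of E07, D11 and BPR21 from control mice were -0.45, 1.48 and 1.76 (adjusted p = 0.580, 0.196 and 0.0809).

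Within groups, some members were correlated with the marker genes of a blood cell type. Marker lists were scored in each mouse by averaging z-scored vst values, and group means were removed from scores and genes, giving 80 relations. Prdx2 and the erythroid score had r = 0.97 and rho = 0.97 (permutation test with 100000 resamples, adjusted p = 1.14e-04 for both, from the smallest p these resamples give), and Txnrd2 had r = 0.95 and rho = 0.96. r was at least 0.92 and 0.91 in every group, and 0.97 and 0.96 without the 2 mice farthest from the median. With the erythroid score as a term in the fit, 0 members passed in HOCl against control, E07 against HOCl, D06 against control or E07 against D11. Genes at an unadjusted p under 0.05 fell from 1885 to 1342 and from 2996 to 1124 in the first 2 comparisons. In the last 2 they fell from 2436 to 1054 and from 2192 to 946, of all 10508 genes. The loss of calls is therefore not read as particular to the members. With the term, the log2 fold change of Prdx2 was -0.36 in HOCl against control and 0.31 in E07 against HOCl. That of Txnrd2 was -0.25 and 0.30.

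Srxn1 and Prdx6 followed platelet genes more closely than erythroid genes. Srxn1 and the platelet score had r = 0.91 and rho = 0.90, and Prdx6 and this score r = 0.87 and rho = 0.81 (adjusted p = 1.14e-04 for each), compared with r = 0.45 and 0.38 for the erythroid score. r with the platelet score was 0.76 to 0.96 within groups for Srxn1 and 0.69 to 0.93 for Prdx6, and it was 0.90 and 0.81 without the 2 farthest mice. Both genes were correlated with each other at r = 0.85 and rho = 0.84 (adjusted p = 1.50e-04). Of the 7 platelet genes in the vst table, 5 were called higher in HOCl than in control mice, 7 lower in E07 than in HOCl, 5 higher in D06 than in control, 1 higher in BPR21 than in control and 3 lower in E07 than in D11 mice. Over all genes the shares in these directions were 4.79%, 7.01% and 7.27% in the first 3 and 4.27% in the last. In BPR21 against control 0.504% were called in either direction. The 8 platelet genes counted took 0.297 to 0.525% of all counts in control mice, 0.167 to 0.559% in HOCl, 0.304 to 0.461% in E07, 0.322 to 0.637% in D11, 0.241 to 0.625% in D06 and 0.349 to 0.637% in BPR21 mice, and Gp1bb was at 0 in at least 1 mouse of each group. The part of platelets in the values of both genes was not tested.

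Txn1, the cytosolic thioredoxin, and Prdx5, a peroxiredoxin of mitochondria and peroxisomes, followed neutrophil genes. Txn1 and the neutrophil score had r = 0.86 and rho = 0.80, and Prdx5 and this score r = 0.67 and rho = 0.54 (adjusted p = 1.14e-04 for each). Without the 2 farthest mice r was 0.83 and 0.57, and r of Prdx5 ran from 0.05 to 0.89 over the groups. Of 10 neutrophil genes, 3 were called higher in HOCl than in control mice, 2 lower in E07 than in HOCl mice and 3 higher in D06 than in control mice. The shares over all genes were 4.79%, 7.01% and 7.27%. The median log2 fold changes of the 10 neutrophil genes in these comparisons were 0.42, -0.43 and 0.05. The 10 neutrophil genes took 0.210 to 1.28% of the counts in control (median 0.568%), 0.326 to 0.741% in HOCl (0.474%) and 0.401 to 0.818% in E07 mice (0.523%). They took 0.263 to 0.682% in D11 (0.451%), 0.179 to 1.24% in D06 (0.385%) and 0.213 to 2.08% in BPR21 mice (0.392%), with Camp at 0 in the controls alone. Txn1 also had r = 0.52 and rho = 0.48 with the monocyte score (adjusted p = 1.14e-04 and 5.33e-04) and r = -0.47 and rho = -0.45 with the T cell score (adjusted p = 2.67e-04 and 5.60e-04). Srxn1 had r = -0.60 and rho = -0.57 with the B cell score (adjusted p = 2.00e-04 and 1.14e-04). Of the 8 B cell genes, 7 were called higher in E07 than in HOCl mice, against 7.89% of all genes called in either direction. In contrast, no relation of Prdx1, the broadly expressed cytosolic peroxiredoxin, or of Txnrd1 with the 8 scores passed an adjusted p of 0.05. Prdx3, the mitochondrial peroxiredoxin, had r = 0.43 with the erythroid score (adjusted p = 0.00388), which was 0.26 without the 2 farthest mice, and rho was 0.24 (adjusted p = 0.159).

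**Figure D3:**
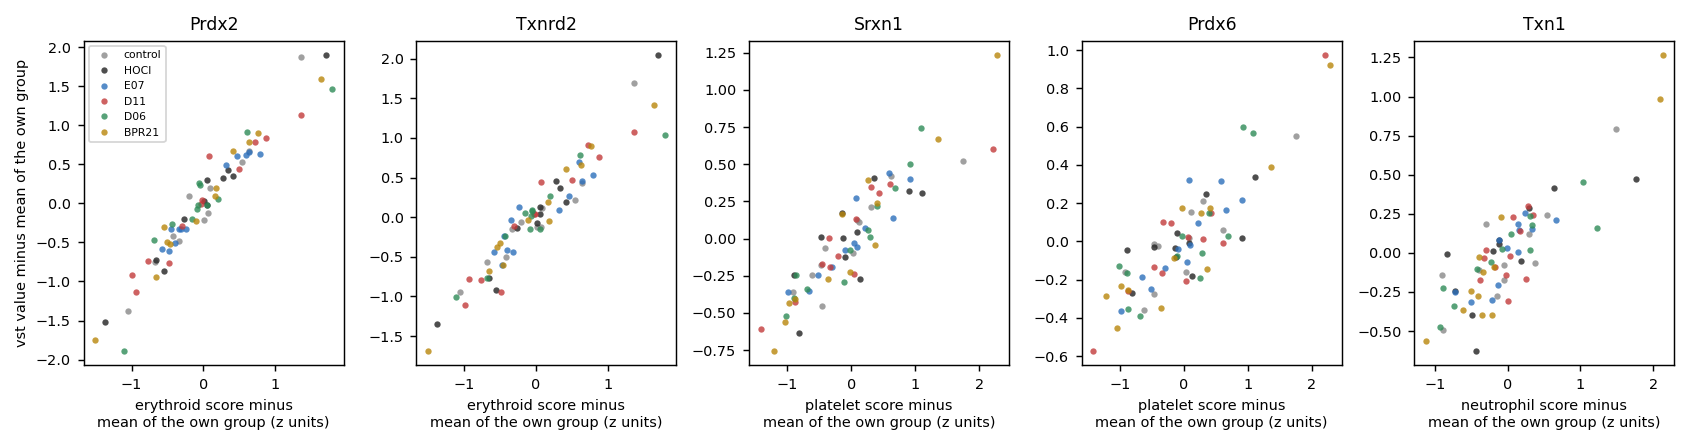
vst value of a gene minus the mean of its own group (y) against the score of a marker list minus the mean of its own group (x, z units), 1 point per mouse, 70 mice coloured by group. The points of all groups lie along 1 line for Prdx2 and Txnrd2 with the erythroid score, and scatter more widely for Srxn1 and Prdx6 with the platelet score and for Txn1 with the neutrophil score.

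**Figure D4:**
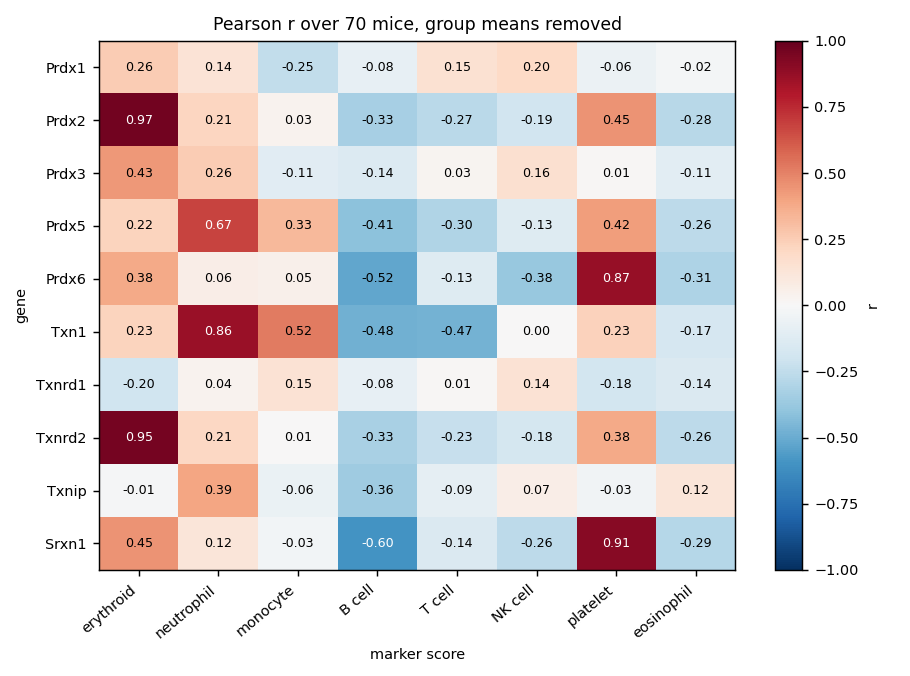
Pearson r of the 10 genes (rows) with 8 marker scores (columns) over 70 mice with group means removed, as a colour from -1 to 1. The erythroid column is darkest for Prdx2 and Txnrd2, the platelet column for Srxn1 and Prdx6 and the neutrophil column for Txn1.

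The members not called in any comparison showed smaller differences. Txn1 (chromosome 4, 57934208 to 57956424) had a vst value of 9.67 to 10.96 (median 10.09) in control, 9.70 to 10.80 (10.34) in HOCl, 9.79 to 10.36 (10.17) in E07, 9.89 to 10.50 (10.17) in D11, 9.76 to 10.68 (10.26) in D06 and 9.67 to 11.49 (10.04) in BPR21 mice. The 2 highest values belonged to BPR21 mice, and all ranges overlapped. Its log2 fold change was 0.16 in HOCl against control (FDR 0.581) and -0.22 in E07 against HOCl (FDR 0.186).

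Txnip, the gene of the thioredoxin-binding protein, which glucose is known to induce, lies on chromosome 3 from 96465267 to 96469201. Its vst value was 12.28 to 12.69 (median 12.55) in control, 11.99 to 13.13 (12.54) in HOCl, 12.24 to 12.50 (12.35) in E07, 12.15 to 12.59 (12.31) in D11, 11.72 to 13.11 (12.29) in D06 and 12.32 to 13.41 (12.60) in BPR21 mice. All 12 E07 mice were below the medians of both control and HOCl mice, yet the FDR was 0.410 against control, with a log2 difference of -0.17 (standard error 0.06), and 0.0820 against HOCl (-0.25, standard error 0.10). In D11 mice 11 of 12 were below the control median (-0.21, FDR 0.127). The values of HOCl, D06 and BPR21 mice spread over SDs of 0.32, 0.41 and 0.36, compared with 0.08 in E07 and 0.12 in D11 mice.

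Txnrd1, the cytosolic reductase (chromosome 10, 82669785 to 82733546), was lowest in D11 mouse 10, at a vst value of 7.32 and 33 counts, whereas the other 69 mice were at 8.02 to 9.08. Group medians were between 8.53 in HOCl and 8.64 in E07 mice, and the log2 difference of D11 from HOCl was -0.11 with this mouse and -0.01 without it. Prdx1 (chromosome 4, 116532123 to 116558398) had medians between 10.92 in control and 11.22 in D06 mice. It was above the control median in all 12 D06 mice, at a log2 difference of 0.32 (FDR 0.0630), and above the HOCl median in all 12 as well, at 0.30 (FDR 0.174). Prdx3 (chromosome 19, 60852489 to 60863017) and Prdx5 (chromosome 19, 6884065 to 6887792) had group medians between 9.28 and 9.46 and between 10.61 and 11.03, and neither passed an FDR of 0.05 in any of the 10 comparisons.

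Prdx6 had group medians of 10.83 in control, 11.18 in HOCl, 10.80 in E07, 11.19 in D11, 11.19 in D06 and 11.09 in BPR21 mice, within ranges of 10.49 to 11.39, 10.94 to 11.54, 10.47 to 11.15, 10.62 to 12.16, 10.86 to 11.85 and 10.75 to 12.13. For Srxn1 the medians were 10.29, 10.76, 10.36, 10.72, 10.84 and 10.79 in the same order, within 9.90 to 10.87, 10.12 to 11.16, 10.04 to 10.84, 10.17 to 11.38, 10.35 to 11.62 and 10.18 to 12.16. All 12 D06 mice were above the control median for both genes, and the highest Srxn1 value belonged to BPR21 mouse 12.

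**Figure D5:**
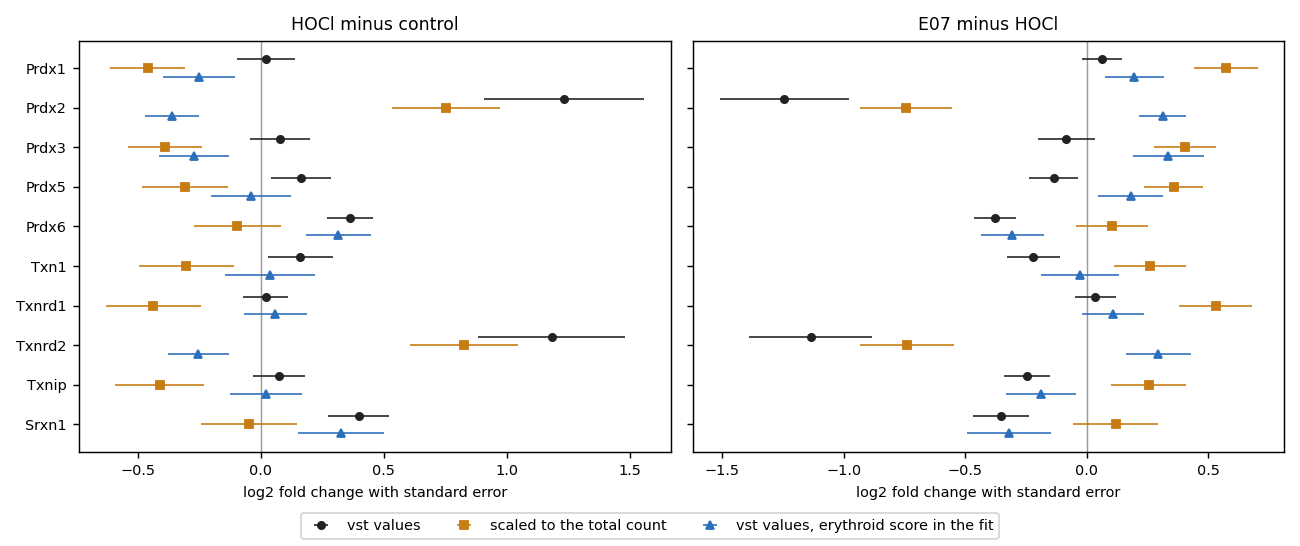
log2 fold change with its standard error (x) of the 10 genes (y) in HOCl minus control and E07 minus HOCl, from the vst values, from counts scaled to each mouse's total, and from the vst values with the erythroid score in the fit. Prdx2 and Txnrd2 keep their sign with total-count scaling (0.75 and 0.83, then -0.74 and -0.74) and change it with the erythroid score, while Prdx3, Prdx5, Prdx6, Txn1, Txnip and Srxn1 change sign with total-count scaling in both comparisons.

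Other genes of the pathway were read from lists. Of 33 other thioredoxin-fold and thioredoxin-dependent genes tested, 3 were called higher in HOCl than in control mice and 4 lower in E07 than in HOCl mice. The shares over all genes were 4.79% and 7.01%. The median log2 fold changes of the list were -0.019 and 0.018, against -0.016 and 0.022 for all genes tested. Glrx5, a mitochondrial glutaredoxin needed for iron-sulphur clusters and heme, was higher by 1.36 (standard error 0.31, FDR 0.00869) and fell by 1.46 (standard error 0.26, FDR 0.000365). The glutaredoxin Glrx was higher by 0.79 (FDR 0.0457) and lower by 1.03 (FDR 0.000574). Txn2, the mitochondrial thioredoxin that Txnrd2 reduces, was higher by 0.70 (standard error 0.21, FDR 0.0424) and lower by 0.71 (standard error 0.18, FDR 0.00950). Txnl1 was lower by 0.44 in E07 than in HOCl mice (FDR 0.0245). In D06 against control mice these 4 genes were called higher, and in E07 against D11 mice 3 of them, Txn2, Glrx5 and Glrx, were called lower. No gene of this list was called in the other 6 comparisons.

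Among 7 other genes of peroxide and superoxide removal, 3 were called in each of HOCl against control and E07 against HOCl. The shares over all genes were 4.96% and 7.89%, and the median log2 fold changes of the 7 genes were 0.35 and -0.33. Cat, encoding catalase, was higher by 1.36 (standard error 0.24, FDR 0.00354) and lower by 1.42 (standard error 0.23, FDR 0.000216). The glutathione peroxidase Gpx1 was higher by 1.27 (FDR 0.0246) and lower by 1.11 (FDR 0.00566), and the mitochondrial superoxide dismutase Sod2 was higher by 0.91 (FDR 0.00832) and lower by 0.98 (FDR 0.000456). Gpx4, which reduces lipid peroxides, was called in D06 against control at 0.74 (FDR 0.000998) beside these 3, and is named here after its values were seen. In E07 against D11 mice, Cat (-0.80, FDR 0.0395), Gpx1 (-0.87, FDR 0.0309) and Gpx4 (-0.39, FDR 0.0316) were called lower.

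The genes with the pattern most like each member were found from the Pearson r of vst values over 70 mice with group means removed, as a description. They were Ubb, Pink1 and Bsg for Prdx2 (r = 0.98 for each), Hagh, Blvrb and Fis1 for Txnrd2 (0.97) and Alox12, Pcp4l1 and Pttg1ip for Srxn1 (0.94 to 0.93). Pcp4l1, the second of these, came first for Prdx6 (0.89), with Zfand3 and Aldh2 (0.89 and 0.88). Clec4e, S100a11 and Anxa1 were most like Txn1 (0.89 to 0.88), Arpc3, Alox5ap and Mcemp1 most like Prdx5 (0.78 to 0.75), Eef1b2, Rps7 and Rps23 most like Prdx1 (0.77 to 0.75), Zfp36l2, Btg1 and Sik1 most like Txnip (0.75 to 0.67), Wapl, Zfand6 and Arf5 most like Prdx3 (0.68 to 0.62), and Tbx6, Ccnyl1 and Tmem268 most like Txnrd1 (0.60 to 0.53). Of the 45 pairs among the members, 14 had an adjusted permutation p of at most 0.05 for r and 7 for rho, and the highest r were those of Prdx2 with Txnrd2, Prdx6 with Srxn1 and Prdx5 with Txn1 (r = 0.70, rho = 0.60, adjusted p = 1.50e-04).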

How the data were processed

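Whole blood RNA of 71 mice was poly A selected, depleted of globin and sequenced with strand-specific libraries. The authors aligned reads to mm39 with STAR and counted them with featureCounts, and deposited raw counts. The authors also deposited vst values, a variance-stabilized log2-like scale made with DESeq2, after removal of non-coding and low genes. From the vst values, limma (3.58.1, R 4.3.3) was fitted to each pair of groups over 10508 genes with Benjamini-Hochberg adjustment, thresholds of FDR 0.05 and 1.3-fold. edgeR (4.0.16) and DESeq2 (1.42.0) on the counts, total-count scaling with a pseudocount of 1, an erythroid score as a term and a replicate block were alternatives. The median depth was 13719277 counts, and the member with the fewest counts in a mouse was Txnrd1 with 33. All 10 members were named, with genes of the lists past both thresholds and the 3 genes most like each member. The members and lists were chosen with earlier results of these data known. Groups came from the titles, mice of 1 group were taken as replicates, and HOCl mouse 8 has no vst values. p-values measure the spread between the mice of a group, which shared cages. The scripts were tested on simulated data. Replicate numbers name different animals, and only some same-numbered mice deviated together.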

Additional observations from a re-analysis of the deposited data

How the results depend on the processing

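With scaling to the total count, members called moved to 4 in HOCl against control, 5 in E07 against HOCl and 5 in E07 against D11, where 52.0%, 65.5% and 44.4% of all genes were called. Over the 10 comparisons, 6 calls of members with an unchanged sign were new with this scaling, and not all of them lay in the comparisons just named. In D06 against control 67% of all genes were called. The signs of 8, 6 and 5 of the 10 members were the opposite in HOCl against control, E07 against HOCl and E07 against D11, and of 6 in D06 against control. Among values past both thresholds in either fit, in HOCl against control Prdx1 was -0.46 and Prdx3 -0.39, in E07 against HOCl Prdx3 was 0.40, in D06 against control Prdx3 was -0.43, Prdx6 -0.14, Txn1 -0.49 and Srxn1 -0.010, and in E07 against D11 Prdx5 was 0.39. With the erythroid score as a term, 0 members were called in HOCl against control, E07 against HOCl, D06 against control and E07 against D11. In BPR21 against HOCl 1 was called. The shares of all genes called with this term are not given here. Genes at an unadjusted p under 0.05 fell with it from 1885 to 1342 in HOCl against control. They fell from 2996 to 1124 in E07 against HOCl and from 2436 to 1054 in D06 against control. In E07 against D11 they fell from 2192 to 946, and in BPR21 against HOCl they rose from 1474 to 2090. Prdx2 then had -0.36 in HOCl against control, 0.31 in E07 against HOCl, 0.39 in BPR21 against HOCl and -0.052 in D06 against control, and Txnrd2 had -0.25 and 0.30 in the first 2. The cause was not tested.

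With the FDR alone, 4 members were called in E07 against HOCl. In 1 fit of all 6 groups, 2 were called in BPR21 against control and 0 in E07 against D11. On the counts, edgeR called 4 in E07 against D11, with all mice or those with vst values. DESeq2 called 4 there and 1 in BPR21 against control. Over all comparisons, 5 calls of members were new with DESeq2, and not all of them lay in the comparisons just named. With edgeR without a filter on low counts, 1 call was new, and it did not lie in E07 against D11. Leaving out 1 mouse gave 2 to 4 members in HOCl against control, 2 to 4 in E07 against HOCl, 0 to 3 in D11 against control, 3 to 5 in D06 against control, 0 to 3 in BPR21 against control, 0 to 4 in E07 against D11 and 0 in the other 4. The shares of all genes called in these fits and with the replicate block below are not given here. The counts are therefore not read as particular to the members.

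With the replicate block, 0 members were called in HOCl against control, 2 in D11 against control, 3 in BPR21 against control and 3 in E07 against D11, and the other counts did not move. Same-numbered mice are different animals. The mean r of their deviations was 0.0100 (D06 and HOCl) to 0.146 (E07 and control, 7 of 11 pairs over 0.1), with 4 of 10 pairs over 0.1 for HOCl and control and 5 of 11 for D11 and control. At most 4 mice of a comparison correlated best with their own number.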
